A study of Mus musculus with 13 samples.

Results

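The genes described here are 5 members of the CCN family, Ccn1, Ccn2, Ccn3, Ccn4 and Ccn5, and 3 further genes, Ankrd1, Amotl2 and Akap12. With Ccn1 and Ccn2, Ankrd1 and Amotl2 are in common use as readouts of the transcriptional coactivator YAP. They were taken by symbol from a table of read counts, in which they are 8 of 49315 gene identifiers. The list was built around Ccn1 and Akap12, which were chosen by their higher measured values on the HFSC diet described next (Ccn1 in flox mice and over both genotypes, Akap12 over both genotypes). All 8 passed the filter on low counts and were among the 16496 genes tested. The table comes from RNA sequencing of polyA-selected RNA of mouse skeletal muscle in 13 libraries. Mice carried either 2 floxed copies of the miR-181a2b2 locus (miR-181a2b2flox/flox, here flox) or lacked it systemically (miR-181a2b2-/-, here KO), and ate either chow or the diet called HFSC, a name the labels do not spell out. On chow 3 libraries came from flox and 3 from KO mice, and on HFSC 4 came from flox and 3 from KO mice. The series names hindlimb ischemia, but no label says which limb a library came from or when it was taken, and neither the age of the mice nor the Cre line behind the KO is given there. Whether each library is an animal of its own is not said either, so that the p-values capture the spread among libraries, which may be partly technical.

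CCN proteins are secreted matricellular proteins: they bind integrins, heparan sulfate proteoglycans and growth factors in the matrix and act as signals rather than as structural parts. YAP and its relative TAZ are held inactive in the cytoplasm when the Hippo kinases LATS1 and LATS2 phosphorylate them. When cells are stretched, spread or injured they enter the nucleus and switch on genes through the DNA-binding TEAD factors, whose core motif is GGAATG. In muscle, Ankrd1 encodes a stretch-responsive ankyrin repeat protein of the sarcomere, and Ccn2 is known for its part in fibrosis.

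The sequences below show where that core motif stands before the RefSeq start of 3 of the 8 genes. RefSeq promoters of build GRCm38.p6 could be matched for Ccn1, Ankrd1 and Amotl2. For Ankrd1 and Amotl2 the start in that table lies inside the gene as GENCODE M21 annotates it, so that only the window of Ccn1 lies in front of the whole gene. The 250 bases before each RefSeq start were searched for GGAATG and its reverse complement CATTCC, which are in capitals. Ccn1 had 1 match, which begins 103 bases before the start, Ankrd1 had 2 (210 and 123 bases before) and Amotl2 had 1 (65 bases before). Of 32851 promoter windows of the same length, 12.6% held at least 1 such match and 1.02% at least 2. None of the 3 windows held a CArG box, the motif of serum response factor, which was found in 1.47% of all windows. A match shows that these letters are present, not that a factor binds there. The whole window is given for Ccn1 (chr3:145649986-145650235, minus strand) and 30 bases around each match for Ankrd1 (chr19:36120037-36120066 and chr19:36119950-36119979, minus strand) and Amotl2 (chr9:102717727-102717756, plus strand).
Ccn1: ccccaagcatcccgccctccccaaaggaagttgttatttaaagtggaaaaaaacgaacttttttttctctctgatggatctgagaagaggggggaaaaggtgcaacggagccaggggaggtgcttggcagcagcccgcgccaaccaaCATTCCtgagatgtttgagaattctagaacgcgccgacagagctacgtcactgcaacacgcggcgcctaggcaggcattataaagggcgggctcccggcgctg
Ankrd1, distal match: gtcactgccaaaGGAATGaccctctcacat
Ankrd1, proximal match: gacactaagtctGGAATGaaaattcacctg
Amotl2: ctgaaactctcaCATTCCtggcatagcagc

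The locus deleted in KO mice makes miR-181a-5p and miR-181b-5p, which share a seed (bases 2 to 8, in capitals, from RefSeq).
miR-181a-5p, chr2:38852741-38852763, plus strand: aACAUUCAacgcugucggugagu
miR-181b-5p, chr2:38853845-38853868, plus strand: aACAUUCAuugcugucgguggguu
The 7-base match to this seed, TGAATGT, was looked for in the 8 genes' longest 3' UTRs (GENCODE M21, GRCm38). It occurred once in Ccn1, at chr3:145647116-145647122 (minus strand), and 2 times in Ccn4, at chr15:66922274-66922280 and chr15:66923021-66923027 (plus strand). The other 6 genes had none, and none of the 8 had the longer match TGAATGTA. Of 13905 tested genes with a 3' UTR, 18.5% had the 7-base match and 6.08% the longer one. The sites of Ccn1 and Ccn4 are shown because a site in a target is where these miRNAs would pair.
Ccn1 site: tgttttaagatTGAATGTttttttatttat
Ccn4, first site: tgcaccaagagTGAATGTcttaggtgtact
Ccn4, second site, nearer the end of the 3' UTR: agaaacaccttTGAATGTcctaataaagga

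Total counts ran from 20830943 to 45710227 per library, and a count of 0 allows a level of up to 3 counts, or 0.0633 to 0.152 CPM (counts scaled to the library's size). Every member was above this limit in every library, with 11 reads of Ccn4 in a chow KO library as the lowest count. CPM here use TMM scaling, which corrects for differences in composition between libraries. The 10 fast fibre markers summed to 81728 to 200577 CPM per library, against 207.2 to 749 CPM for 7 adipocyte markers, although the labels' extraction text names white adipose tissue. The 2 chow groups differed in markers of other cells. Fibroblast markers summed to 1976 to 7031 CPM in chow flox and 801 to 1191 CPM in chow KO, and chow flox replicate 4 was the lowest of its group. The HFSC libraries lay within the chow flox range, at 3515 to 4945 CPM in flox and 3355 to 3842 CPM in KO. In whole muscle, fewer cells of a type and less RNA per cell cannot be told apart.

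Divided by exon length, the mean level over all libraries was highest for Ccn1, at 37.1 CPM per kilobase, followed by Ccn2 at 23.9 and Ankrd1 at 16.5. Amotl2 (4.06), Ccn3 (3.93) and Akap12 (3.31 CPM per kilobase) lay close together. Ccn5 (1.53) and Ccn4 (0.736 CPM per kilobase) were the lowest. The plot of CPM by library shows that the members fell into different patterns over the 4 groups.

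**Figure D1:**
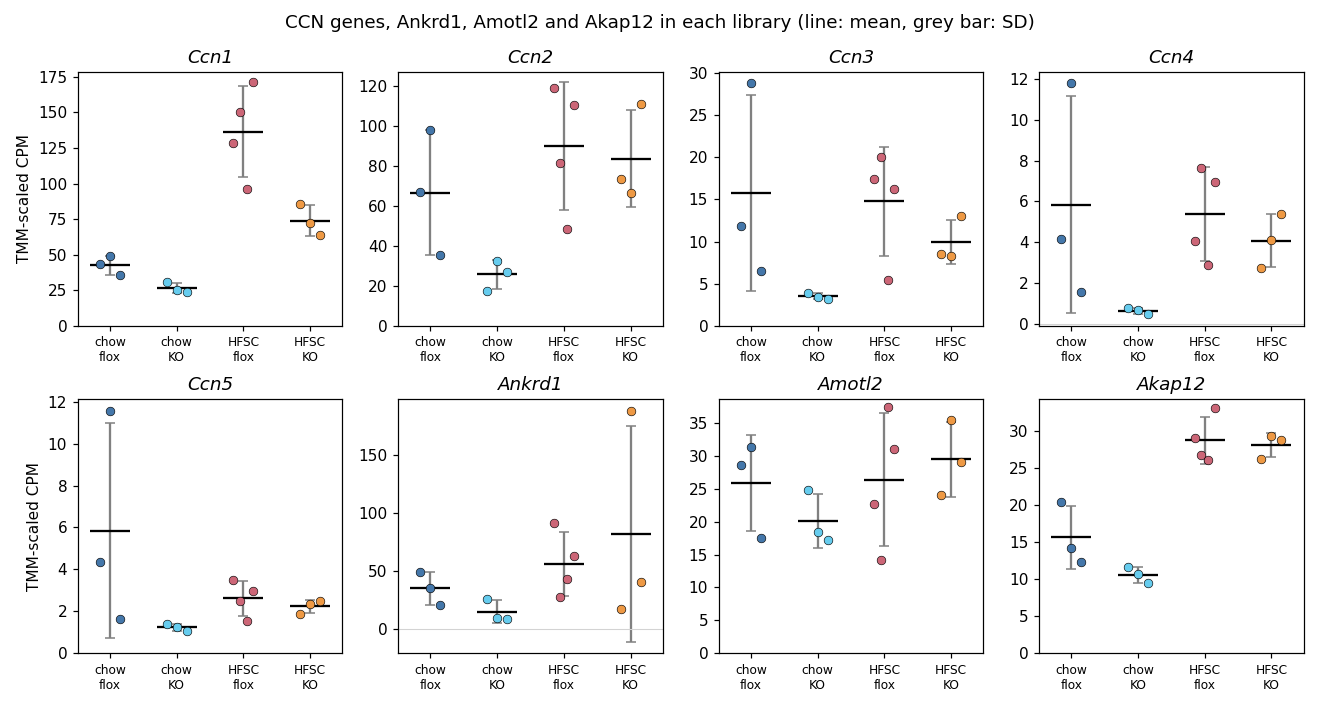
TMM-scaled CPM (y axis) of the 8 genes in each library, by group (x axis); points are libraries, black lines group means and grey bars SD, n = 3, 3, 4 and 3. Ccn1 libraries separate into 4 steps from chow KO (23.8 to 30.7 CPM) to HFSC flox (96.1 to 171 CPM), whereas Ccn3, Ccn4 and Ccn5 are highest in a single chow flox library.

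Ccn1 encodes an angiogenic matricellular protein that is also induced as an immediate early gene. Because diet differences guided the choice of genes, levels and diet differences of all 8 are a description. No p-value is given for them, and the diet calls counted further below are not read as support. Ccn1 (chromosome 3, 145646976 to 145649981, minus strand) was at 43.2, 48.8 and 35.7 CPM in chow flox replicates 2, 3 and 4 and at 30.7, 24.9 and 23.8 CPM in chow KO replicates 1, 2 and 3. On HFSC it was at 128, 150, 96.1 and 171 CPM in flox replicates 1 to 4 and at 85.5, 72.6 and 63.6 CPM in KO replicates 2, 3 and 4. No pair of groups overlapped, and the order from high to low was HFSC flox, HFSC KO, chow flox and chow KO. HFSC exceeded chow by 1.68 ± 0.20 (SE) on the log2 scale in flox and by 1.48 ± 0.20 in KO.

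Akap12 encodes a scaffold that anchors protein kinases A and C near the membrane (chromosome 10, 4266380 to 4359470, plus strand). It had 20.4, 14.2 and 12.3 CPM in chow flox replicates 2, 3 and 4 and 11.6, 10.7 and 9.44 CPM in chow KO replicates 1, 2 and 3. On HFSC the flox libraries had 29.1, 26.7, 26.1 and 33.1 CPM and the KO libraries 26.2, 29.3 and 28.7 CPM. All 7 HFSC libraries were thus above all 6 chow libraries, while flox and KO overlapped on HFSC. The log2 difference between HFSC and chow was 0.88 ± 0.16 in flox and 1.41 ± 0.17 in KO. Without chow flox replicate 2 the flox value was 1.13.

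Ccn2 encodes connective tissue growth factor (chromosome 10, 24595442 to 24598683, plus strand). An antisense transcript, Gm15270, overlaps its exons and had 4 to 25 reads per library against 518 to 5252 for Ccn2. Ccn2 was at 67.0, 97.9 and 35.4 CPM in chow flox replicates 2, 3 and 4, and at 17.7, 32.4 and 27.1 CPM in chow KO replicates 1, 2 and 3. HFSC flox replicates 1 to 4 had 119, 81.7, 48.7 and 111 CPM, and HFSC KO replicates 2, 3 and 4 had 73.6, 66.6 and 111 CPM. Chow KO was below every other library, and the other 3 groups overlapped each other. HFSC minus chow was 0.43 ± 0.36 in flox and 1.71 ± 0.39 in KO on the log2 scale.

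Ccn3 (chromosome 15, 54745702 to 54754039), Ccn4 (chromosome 15, 66891320 to 66923201) and Ccn5 (chromosome 2, 163820861 to 163833146), all on the plus strand, shared a different pattern. Ccn5 lacks the carboxy-terminal module that the other CCN proteins carry, and Ccn4 is known as a WNT-induced member. Ccn3 was at 11.9, 28.8 and 6.56 CPM in chow flox replicates 2, 3 and 4 and at 3.89, 3.44 and 3.23 CPM in chow KO replicates 1, 2 and 3. Ccn4 had 4.16, 11.8 and 1.56 CPM in the same chow flox libraries and 0.784, 0.679 and 0.474 CPM in chow KO. Ccn5 had 4.33, 11.6 and 1.64 CPM against 1.40, 1.24 and 1.03 CPM. For each of the 3 genes chow flox replicate 3 was the highest of all 13 libraries and the chow KO libraries were the lowest. On HFSC, Ccn3 had 5.41 to 20.01 CPM in flox and 8.33 to 12.97 CPM in KO, Ccn4 had 2.88 to 7.65 and 2.76 to 5.36 CPM, and Ccn5 had 1.54 to 3.48 and 1.86 to 2.46 CPM. The HFSC flox and HFSC KO libraries thus overlapped for all 3. In flox the fitted log2 difference between HFSC and chow was -1.17 ± 0.47 for Ccn5, and -0.20 without chow flox replicate 3. Without that library Ccn3 and Ccn4 in flox moved from -0.10 and -0.13 to 0.68 and 0.89.

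Ankrd1 (chromosome 19, 36111961 to 36120099, minus strand) had the widest spread within a group, in HFSC KO. It had 49.3, 35.5 and 20.6 CPM in chow flox replicates 2, 3 and 4 and 26.2, 9.75 and 8.70 CPM in chow KO replicates 1, 2 and 3. HFSC flox replicates 1 to 4 had 91.1, 27.3, 43.0 and 62.9 CPM, and HFSC KO replicates 2, 3 and 4 had 17.4, 188 and 40.3 CPM. A single library, HFSC KO replicate 3, was thus far above the others. In that library Myh3, the embryonic myosin heavy chain of regenerating fibres, was at 256 CPM against 23.5 and 49.6 CPM in HFSC KO replicates 2 and 4. Myog, a differentiation factor of muscle precursors, was at 37.9 against 6.44 and 6.86 CPM. Over the 8 satellite cell and regeneration markers the summed level ran from 123.4 to 904 CPM in HFSC KO and from 172.3 to 393 CPM in HFSC flox. On chow it ran from 128.7 to 970 CPM in flox and from 96.9 to 209 CPM in KO. The highest sum was that of chow flox replicate 3, where Ankrd1 was at 35.5 CPM. The part of these cells in the Ankrd1 value was not tested. HFSC minus chow in KO was 2.45 ± 0.77 for Ankrd1 and 0.95 without HFSC KO replicate 3.

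Amotl2 encodes an angiomotin family protein that binds YAP and holds it back, and is itself a YAP target (chromosome 9, 102716672 to 102733418, plus strand). It ran from 14.2 to 37.5 CPM over all libraries, the smallest fold between the lowest and the highest library among the 8 genes. Group means were 25.9 ± 7.31 CPM (SD) in chow flox, 20.2 ± 4.11 in chow KO, 26.4 ± 10.1 in HFSC flox and 29.5 ± 5.72 in HFSC KO, and neighbouring groups overlapped.

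On chow, KO was compared with flox, a contrast that did not set the choice of Ccn1 and Akap12. It shares its chow libraries with the diet differences that did. The members were also chosen with earlier results of these data known. The p-values and counts here are thus not independent of the choice. Of the 8 members 6 fell: the 5 CCN genes and Akap12. Over all tested genes 10.1% fell and 1.38% rose. The same 6 members had no overlap between the groups, with chow KO below chow flox, as did 13.9% of all tested genes. The median log2 fold change of the 8 was -1.31, beside -0.01 over all tested genes. Ccn4 fell from 5.83 ± 5.31 to 0.646 ± 0.158 CPM (SD, n = 3 each), a log2 fold change of -3.16 ± 0.65 (SE; edgeR quasi-likelihood test with Benjamini-Hochberg adjustment, adjusted p = 0.0189). Ccn5 (-2.26 ± 0.55, adjusted p = 0.0253) and Ccn3 (-2.16 ± 0.52, adjusted p = 0.0253) followed. Ccn2 had -1.38 ± 0.39 (adjusted p = 0.0407), Ccn1 -0.69 ± 0.20 (adjusted p = 0.0453) and Akap12 -0.57 ± 0.17 (adjusted p = 0.0474). Ankrd1 (-1.23 ± 0.75, adjusted p = 0.254) and Amotl2 (-0.36 ± 0.31, adjusted p = 0.418) did not pass in edgeR. Limma voom called all 8 members (adjusted p = 0.0154 for Ankrd1 and 0.0319 for Amotl2), but it called 9877 of all tested genes, against 1898 in edgeR. The voom calls thus say little about these members in particular. The plot of fitted changes places all 8 members below zero in this contrast.

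These 6 calls rest on few libraries. No member passed once chow flox replicate 3 was left out, nor without replicate 2 or replicate 3 of chow KO. Without chow flox replicate 2 or chow KO replicate 1, 1 passed, namely Ccn4. Without chow flox replicate 4, 6 members passed, beside 7261 of all tested genes. With chow flox replicate 3 left out, the log2 fold changes of Ccn3, Ccn4 and Ccn5 were -1.42, -2.18 and -1.33. Leaving out any 1 HFSC library, none of which is in this contrast, left 3 to 5 members. With only the chow libraries in the fit none of the 8 passed (adjusted p from 0.191 to 0.335). The direction was lower in chow KO for all 8 genes under every alternative tried.

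**Figure D2:**
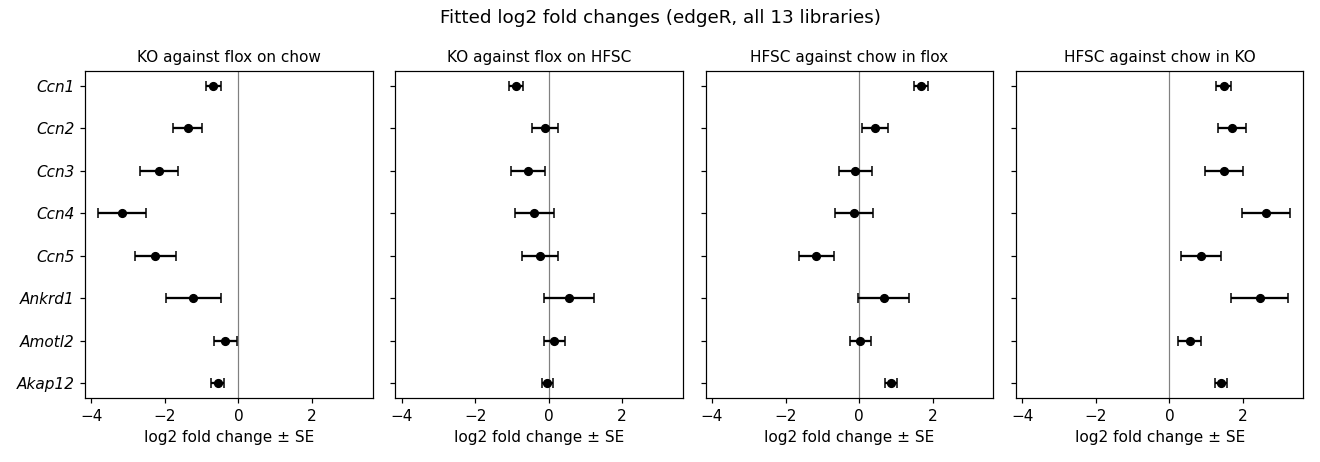
Fitted log2 fold change with its SE (x axis) of each gene (y axis) in 4 contrasts, from the edgeR fit of all 13 libraries; the grey line is no difference. All 8 genes lie below zero for KO against flox on chow and above zero for HFSC against chow in KO, while Ccn1 and Akap12 lie farthest above zero for HFSC against chow in flox, at 1.68 and 0.88.

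Markers of other cells moved in the same chow contrast. Of 12 fibroblast and progenitor markers 10 fell, with a median of -1.39, among them Col3a1 (-3.73 ± 0.54) and Pdgfra (-1.28 ± 0.18). Of 10 macrophage markers 9 fell (median -2.71), of 7 tendon markers 4 fell (-1.41), and of 10 endothelial and 9 smooth muscle and pericyte markers 2 each fell (-0.50 and -0.57). Summed macrophage markers were at 119.6 to 1052 CPM in chow flox and 46.5 to 83.1 CPM in chow KO, and no marker of these lists was at 0 throughout a group. Their part in the fall of the CCN genes was not tested.

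On HFSC, KO was compared with flox in the same way, and 0 of the 8 members passed in edgeR, beside 0.0182% of all tested genes. At an unadjusted p under 0.05 there was 1, Ccn1, beside 10.4% of all tested genes. DESeq2 called 1, again Ccn1, beside 165 of all tested genes, and limma voom 0. Ccn1 was at 136 ± 32.1 CPM (SD, n = 4) in flox and 73.9 ± 11.04 CPM (SD, n = 3) in KO. Ccn1 had been chosen partly by its high values in these flox libraries, a choice that favours a lower value in KO. Its p-values and calls here, and in the interaction, are thus not independent of the choice. Its log2 fold change was -0.88 ± 0.19 (adjusted p = 0.150 in edgeR and 0.00431 in DESeq2). It was also the single member whose groups did not overlap here, with KO lower, as in 5.31% of all tested genes. Its log2 fold change ran from -1.02 to -0.76 when each library in turn was left out (adjusted p from 0.0788 to 0.726). The other 7 members had log2 fold changes between -0.57 (Ccn3, adjusted p = 0.721) and 0.54 (Ankrd1, adjusted p = 0.838), and that of Ankrd1 was -0.96 without HFSC KO replicate 3. Of 15 immediate early genes none passed on HFSC, with a median of -0.42, and Fosb had -2.43 ± 0.70 (adjusted p = 0.272). The fibroblast and macrophage lists had medians of -0.02 and -0.05, and the summed fibroblast markers were at 3515 to 4945 CPM in HFSC flox and 3355 to 3842 CPM in HFSC KO.

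To ask whether the genotype difference itself differed between the diets, the interaction was tested, and 0 of the 8 members passed in edgeR, as did none of the other tested genes. At an unadjusted p under 0.05 there were 5 members, Ccn2, Ccn3, Ccn4, Ccn5 and Akap12, beside 29.2% of all tested genes. DESeq2 called 2 members, Ccn4 and Ccn5, and limma voom 4, where voom called 7061 of all tested genes. Ccn4 had the largest interaction, 2.77 ± 0.83 (adjusted p = 0.0840), followed by Ccn5 at 2.02 ± 0.72 (adjusted p = 0.107). Ccn1 had the smallest, at -0.20 ± 0.27 (adjusted p = 0.652). Without chow flox replicate 4, 5 members passed, the same 5 as at the unadjusted p, beside 5928 of all tested genes.

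As a description only, since Ccn1 and Akap12 were chosen by these values, those 2 of the 8 members were called higher on HFSC in flox, beside 0.115% of all tested genes. They also had no overlap between the diets, as did 4.26% of all tested genes with HFSC higher. In KO there were 5, namely Ccn1, Ccn2, Ccn4, Ankrd1 and Akap12, beside 14.9% of all tested genes, and 6 members had no overlap with HFSC higher, as did 26.8% of all tested genes. Nothing is read from these counts. Each diet contrast shares its libraries with the genotype contrasts. Slow fibre markers moved with the diet: 7 of 8 fell in flox (median -2.61) and 8 of 8 in KO (median -3.10). Their sum was 6898 to 10163 CPM in the chow libraries and 772 to 2067 CPM in the HFSC libraries. Whether the same part of the muscle was taken on each diet is not stated by the labels, and diet and fibre content cannot be told apart. The immediate early list had a median of 0.48 in flox, with none past the threshold, and 4 of 15 rose in KO, Atf3 (3.32 ± 0.46), Nr4a3 (4.14 ± 0.68), Fosl2 (0.97 ± 0.27) and Fosb.

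The other genes of the pathway were followed from lists, and their p-values are adjusted over all tested genes. Over all tested genes 10.1% fell in chow KO, and in KO 14.9% rose and 10.6% fell on HFSC. A list of known YAP targets, with the members left out, had 17 of 18 genes tested (Foxf2 was too low). In chow KO 6 fell and 1 rose, with a median of -0.91. Ccdc80, a secreted matrix protein, fell from 76.9 ± 32.7 to 26.5 ± 7.07 CPM (-1.54 ± 0.29, adjusted p = 0.0164). Axl, a receptor tyrosine kinase, fell from 52.4 ± 18.3 to 23.5 ± 2.30 CPM (-1.16 ± 0.22, adjusted p = 0.0168). Myof, a membrane repair protein (-1.93), F3, which encodes tissue factor (-1.23), Igfbp3 (-1.28) and Rbms3 (-0.76) fell too, whereas Crim1 rose (0.91). On HFSC none passed between genotypes (median 0.01), and in flox none passed between diets (median 0.05). In KO 8 rose on HFSC and 1 fell, with a median of 0.99: Axl (1.54 ± 0.22), F3 (1.43 ± 0.27), Ccdc80 (1.37 ± 0.29), Myof (1.46) and 4 others rose, and Crim1 fell by 1.23. Markers of other cells rose in the same contrast: 10 of 12 for fibroblasts (median 1.80), 8 of 10 for macrophages (1.90), 9 of 10 for endothelium (1.19) and 5 of 7 for tendon (1.54). Their part in the rise of the YAP targets, and of the receptors and TGF-beta and MRTF genes given next, was not tested.

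**Figure D3:**
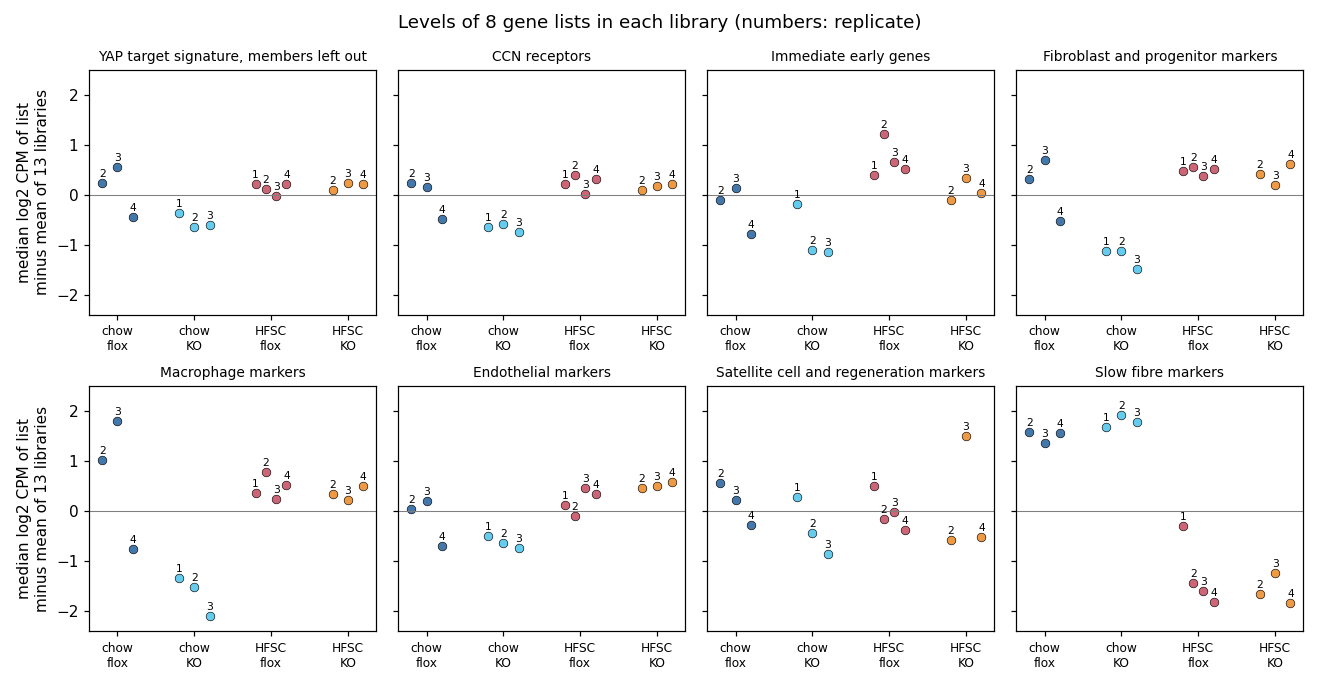
Level of 8 gene lists in each library: the median over the list's tested genes of log2 CPM minus that gene's mean over the 13 libraries (y axis), by group (x axis), with replicate numbers beside the points. Chow KO and chow flox replicate 4 are low for the YAP targets (-0.64 to -0.37 in chow KO, -0.44 in that library) and for fibroblast, macrophage and endothelial markers, and slow fibre markers separate the diets.

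Of 9 genes for YAP, TAZ, TEAD factors and their cofactors, 2 fell in chow KO, beside 10.1% of all tested genes. They were Tead2 (-1.37 ± 0.30) and Wwtr1, which encodes TAZ (-0.51 ± 0.14). The same 2 rose on HFSC in KO, by 1.74 ± 0.30 and 0.83 ± 0.14, beside 14.9% of all tested genes. Nothing is read from the counts of so small a list. Of 17 Hippo kinase and scaffold genes 16 were tested (Wwc1 was too low). Map4k4, a kinase upstream of LATS, was the 1 of 16 called in chow KO (-0.88 ± 0.23), beside 11.5% of all tested genes. In KO Map4k4 (1.09), Mob1a (0.91), Stk3 (0.64) and Taok2 (0.43) rose on HFSC while Amotl1 fell (-0.71), 5 of 16 genes beside 25.5% of all tested genes. None of either list passed on HFSC between genotypes or in flox between diets.

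Of 12 genes for CCN receptors, 6 fell in chow KO (median -0.58), beside 10.1% of all tested genes. Itgb2 (-4.08 ± 0.80) and Itgam (-3.68 ± 0.83) encode the leukocyte integrin that binds CCN proteins on macrophages. Lrp1, a scavenger receptor that takes up CCN2, fell from 161.6 ± 70.7 to 59.3 ± 15.1 CPM (-1.45 ± 0.30), and Itgb3 (5.37 to 1.33 CPM), Itga5 (-1.55) and Itga6 (-0.65) fell too. In KO 6 rose on HFSC (median 1.10), with Itga6 at 1.28, Itgb1 at 0.64, Sdc4 at 1.03 and Lrp1 at 1.16. Of 13 genes of TGF-beta signalling, a known inducer of Ccn2, 6 fell in chow KO, among them Ltbp2 (-2.81), Tgfbi (-1.77), Tgfbr2 (-0.76) and Tgfb1 (-1.51). In KO 7 rose and 1 fell on HFSC, with Ltbp1 at 1.02 and Smad3 at -0.66. Of 10 genes of the MRTF and serum response factor axis, which also drives Ccn1 and Ccn2, 6 fell in chow KO, including Myh9 (-1.01), Tpm4 (-1.24), Flna (-1.14) and Actn1 (-1.24). In KO 7 of them rose on HFSC, Tpm4 (1.82) first, and 2 fell, Srf (-0.60) and Mrtfa (-0.75). All 3 lists had 0 calls in the remaining contrasts.

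The members' correlation over the 13 libraries is a description: the libraries share groups, depth and cell content. Ccn2, Ccn3, Ccn4 and Ccn5 varied together across libraries, with Pearson r of log2 CPM from 0.69 to 0.94. After the group means were removed these values were 0.68 to 0.89. Ccn1 was closest to Akap12 (r = 0.90), and this was 0.40 with group means removed. Ccn1 was then closer to Ccn3 (0.67), Ccn4 (0.61) and Ccn5 (0.56). Amotl2 was closest to Ankrd1 (0.66, and 0.59 with group means removed) and had r of 0.21 to 0.42 with the CCN genes.

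**Figure D4:**
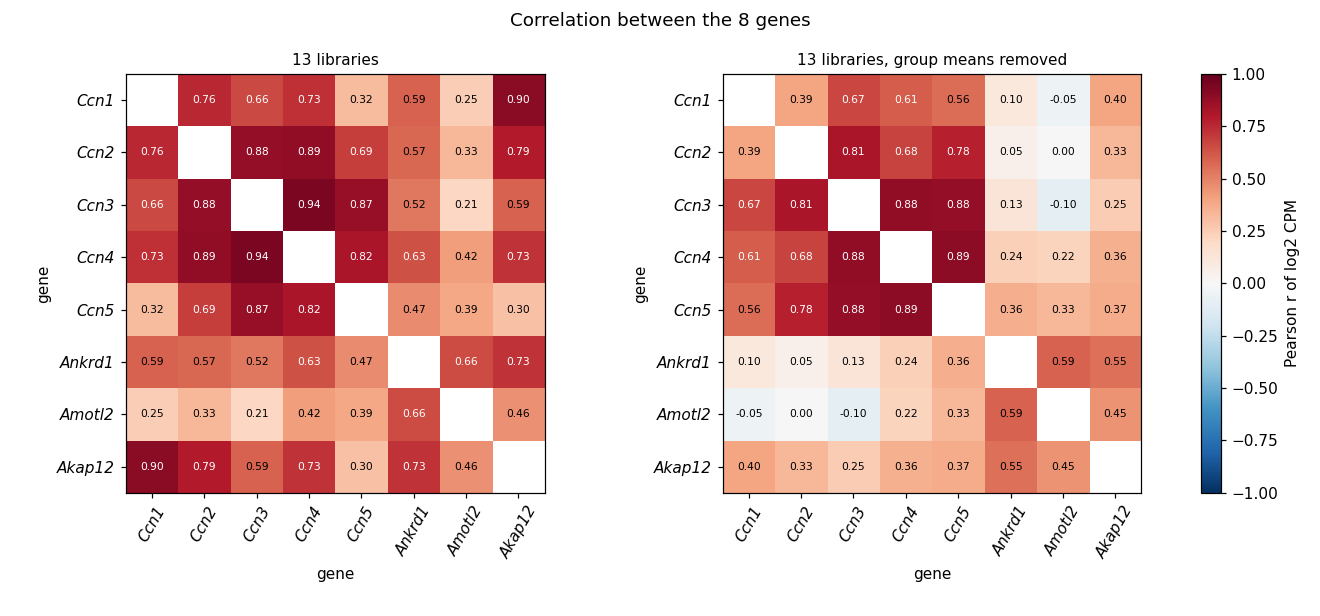
Pearson r of log2 CPM between each pair of the 8 genes (rows and columns), over 13 libraries on the left and with group means removed on the right; red is positive and blue negative. Ccn2 to Ccn5 form a block that stays at 0.68 to 0.89 with group means removed, while the r of 0.90 between Ccn1 and Akap12 is 0.40 there. On the right Ccn1 is closest to Ccn3, at 0.67.

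Among 12176 other genes averaging 1 CPM or more, those most like Ccn4 were Col12a1 (r = 0.992), Thy1 (0.986) and Postn (0.985), a collagen, a surface glycoprotein of fibroblasts and periostin. Ccn3 was most like P4ha3 (0.971), S100a6 (0.965) and Sfrp4 (0.963), and Ccn2 like Eri1 (0.962), S100a10 (0.955) and Aspn (0.952). Ccn5 was most like Mmp3 (0.965), Capg (0.956) and P2rx4 (0.956), and it ran against the level of the fast fibre markers (r = -0.95). Ccn1 was most like Spon2 (0.950), Stard13 (0.932) and Ret (0.931), and Akap12 like Stard13 (0.968), Cldn1 (0.964) and Zfp185 (0.961). Ankrd1 was most like Plekhh2 (0.962), Tnnt2 (0.956), which encodes the troponin T of heart and immature muscle, and Map1b (0.954). Amotl2 was most like Spty2d1 (0.949), Mir22hg (0.929) and Neu2 (0.913). With the levels of the gene lists, Ccn4 had an r of 0.96 for macrophage markers and 0.95 for fibroblast markers (0.90 and 0.87 with group means removed), and Ccn2 had 0.91 for fibroblast markers (0.68). Ccn4 was nearly as close to the MRTF (0.95), TGF-beta (0.94) and YAP target (0.94) lists. For the YAP target list r ran from 0.58 (Amotl2) to 0.94 (Ccn4). With group means removed it ran from 0.45 (Ankrd1) to 0.95 (Ccn5). Ccn1 had 0.88 for immediate early genes (0.44 with group means removed), 0.87 for TGF-beta genes (0.67) and -0.85 for slow fibre markers (-0.16). Akap12 had -0.90 for slow fibre markers (0.02). Ankrd1 had 0.83 for the YAP, TAZ and TEAD factors (0.68) and 0.80 for regeneration markers (0.90), and Amotl2 had 0.83 for smooth muscle and pericyte markers (0.86).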

How the data were processed

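The deposited table holds raw read counts per Ensembl gene for 13 muscle libraries. The tools that the submitters' processing notes list are featureCounts (Subread 1.5.2), STAR 2.5.2b and Trimmomatic 0.36, and the build is GRCm38. No source used here gives the annotation release, the strand setting or how multiply aligned reads were handled, so sense and antisense reads cannot be told apart. Of 49315 identifiers 49056 matched GENCODE M21. Groups come from the sample titles. Counts were fitted with edgeR 4.0.16 in R 4.3.3 (TMM, filterByExpr, robust quasi-likelihood, 4 group means over all libraries) and p-values adjusted by Benjamini-Hochberg over 16496 genes, with a threshold of 0.05. SE was derived as log2 fold change divided by the root of the F statistic. The fit was tested on simulated counts. Every value column was mapped to a sample. Total counts were 20830943 to 45710227, and floors cover counting error only. No replicate pair agreed within sampling noise (chi-square per degree of freedom from 10.5 to 193). Alternatives were RLE factors, DESeq2 1.42.0, limma 3.58.1 voom with sample weights, no filter, a replicate block, only the groups compared, each library left out and, added after seeing the data, library totals. The members and lists were chosen with earlier results of these data known. Named genes are the members, up to 4 called genes per list with the smallest p (others named to complete small counts were chosen after their values were seen), and the 3 most alike genes per member by Pearson r of log2 CPM with a prior count of 2.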

Additional observations from a re-analysis of the deposited data

How the results depend on the processing

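For KO against flox on chow, 1898 genes and 6 members passed. The gene count was 3256 with DESeq2, 9877 with voom, 3096 with library totals, 2 with only the groups compared and 0 with the replicate block. Members numbered 8 with voom, 2 with no filter and 0 with only the groups compared or the replicate block. Between genotypes on HFSC 3 genes passed. There were 165 and 1 member with DESeq2, 33 with voom, 22 with no filter, and 0 with only the groups compared, the replicate block or library totals. For HFSC against chow in flox, 69 genes passed, against 392 with DESeq2, 4145 with voom and 4 with only the groups compared. In KO 4201 passed, against 7116 with voom and 2382 with the replicate block. The interaction had 0 genes, against 2025 and 2 members with DESeq2, 7061 and 4 members with voom and 161 genes with no filter. Leaving out each library in turn gave 0 to 7261 genes and 0 to 6 members for genotype on chow, 0 to 20 genes and 0 members for genotype on HFSC, 15 to 1456 and 1459 to 6112 genes for diet in flox and KO, and 0 to 5928 genes and 0 to 5 members for the interaction. On chow the count of 0 came when chow flox replicate 3 was left out, or replicate 2 or 3 of chow KO, and 7261 and 5928 came without chow flox replicate 4. With library totals all tested genes had a median log2 change of -0.35 for genotype on chow, -0.16 and 0.21 for diet in flox and KO and 0.37 for the interaction, and the splits were 9 higher and 47 lower in flox and 2407 and 1046 in KO, against 19 and 50, and 2459 and 1742. Directions turned in uncalled values: Ankrd1 between genotypes on HFSC was -0.76 with voom (0.54 in edgeR), and the interaction of Ccn1 was 0.16 with library totals. Leaving out a library turned the genotype value on HFSC of Ccn2 (-0.38 to 0.0581), Amotl2 (-0.0459 to 0.37), Akap12 (-0.0784 to 0.0413) and Ankrd1 (-0.96 to 1.02). The cause of these changes was not tested, beyond the smaller number of libraries. Replicate numbers were not taken to pair the samples: deviations of same-numbered libraries correlated above 0.1 in 1 of 16 pairs. With so few libraries per group, this cannot show whether same-numbered libraries were handled together. The interaction uses all groups, so it has no fit with only the groups compared. Depth did not put any member at its floor.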

Other observations

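Relatives of the members were followed too. Ccn6, the remaining CCN gene, had 0 to 7 reads per library and was not tested. Among 8 muscle ankyrin repeat and stretch genes, the relatives of Ankrd1 in function, none passed in chow KO (median 0.49), and Nrap, an actin-anchoring protein of the myotendinous junction, had 0.85 ± 0.28 (adjusted p = 0.0637). On HFSC in KO, 1 of these 8 rose, beside 14.9% of all tested genes, and 1 fell, beside 10.6%. Xirp1, an actin-binding protein of injured fibres, rose by 1.77 ± 0.34 and Nrap fell by 0.82 ± 0.28. Nothing is read from these counts. Of 9 other A-kinase anchoring protein genes none rose with Akap12. In KO 2 fell on HFSC, Akap11 (-0.57) and Akap10 (-0.40), beside 10.6% of all tested genes, and in the remaining contrasts none passed.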
